A study of Homo sapiens with 6 samples.

Results

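The genes described here encode enzymes that attach glucuronic acid to androgens and enzymes that convert one steroid into another. They were chosen by name from the rows of the count table, and 10 of its 37923 genes were members. Of these, 6 are UDP-glucuronosyltransferases of the UGT2B family (UGT2B7, UGT2B10, UGT2B11, UGT2B15, UGT2B17 and UGT2B28). The other 4 are the steroid reductases SRD5A1 and SRD5A3 and the hydroxysteroid dehydrogenases HSD17B6 and HSD17B11.

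RNA was sequenced from 6 libraries of RKO, as the labels name it, a human colorectal carcinoma cell line. The Control group and the ENZ group had 3 libraries each. The series design describes ENZ as cells given a compound named A3, a degrader of the histone demethylase LSD1, and RNA was taken after 48 h. The treatment of Control cells and the meaning of the name ENZ were looked for (not given in the sources used here). The series design names the libraries of a group as biological replicates. How these were kept separate within this 1 cell line was looked for and not found. The p-values cover the spread among libraries, and how much of that spread is technical was not tested.

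Glucuronidation makes a lipid-soluble compound water-soluble, so that it can be exported from the cell and excreted. In androgen target cells, UGT2B15, UGT2B17 and UGT2B28 inactivate dihydrotestosterone and its metabolites, androsterone and androstanediol. Reductases and hydroxysteroid dehydrogenases act before that step and set how much dihydrotestosterone is made or regenerated.

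The libraries held 26691289 to 30025543 counts, and Control and ENZ libraries lay apart on the first principal component (56.0% of the variance). Markers went against the labelled tissue. Of 11 colorectal and intestinal markers in the table, 8 were under 1 CPM (counts scaled to the library total) in both groups, CDX1, KRT20 and GPA33 among them, while VIL1 was over 10 CPM. Of 13 prostate luminal markers, 9 were over 10 CPM and 1 was under 1 CPM, with a summed level of 3218 to 3267 CPM in Control and 3593 to 3625 CPM in ENZ. The cells are therefore called by their group labels only. Differences are given as log2 of ENZ over Control with a standard error (SE) from edgeR's quasi-likelihood test, and the threshold for calling a gene was an adjusted p under 0.05 over 18581 genes tested. The share called was 39.8% of these, with 20.5% in the direction of higher and 19.3% of lower levels in ENZ. Of the 10 members, 7 passed the filter on low counts, UGT2B11 and UGT2B28 through the Control libraries alone, and 3 were called, all lower in ENZ. No result about the members as a set is read from that count.

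The UGT2B members lie in 1 cluster on chromosome 4, from 68537173 to 69526014 (GRCh38), a stretch of 989 kb that holds 10 UGT2B rows of the table. In chromosome order these are UGT2B17, UGT2B15, UGT2B10, the pseudogene UGT2B26P, UGT2B7, UGT2B11, UGT2B28, the pseudogenes UGT2B25P and UGT2B24P, and UGT2B4. The genes are so alike that a short read can match more than one of them. UGT2B11 and UGT2B28 were identical at 1540 of 1587 aligned coding bases (97.0%), and UGT2B15 and UGT2B17 at 1535 of 1590 (96.5%), whereas UGT2B11 and UGT2B15 shared 84.6%. The first 150 coding bases of the closest pairs (GENCODE release 44) are shown because each read was 150 bases long. Capitals mark the bases at which the members of a pair differ, 7 in the first pair and 5 in the second. The stretches are chr4:69214573-69214722 on the minus strand for UGT2B11, chr4:69280501-69280650 on the plus strand for UGT2B28, and chr4:68670469-68670618 and chr4:68568335-68568484, both on the minus strand, for UGT2B15 and UGT2B17.
UGT2B11: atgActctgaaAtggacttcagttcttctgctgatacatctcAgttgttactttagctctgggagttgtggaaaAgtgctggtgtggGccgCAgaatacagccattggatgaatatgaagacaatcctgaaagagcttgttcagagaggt
UGT2B28: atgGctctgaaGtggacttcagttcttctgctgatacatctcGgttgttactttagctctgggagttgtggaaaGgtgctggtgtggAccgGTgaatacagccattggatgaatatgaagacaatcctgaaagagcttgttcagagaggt
UGT2B15: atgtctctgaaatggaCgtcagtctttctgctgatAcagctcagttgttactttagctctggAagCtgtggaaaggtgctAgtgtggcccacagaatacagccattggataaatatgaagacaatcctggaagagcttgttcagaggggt
UGT2B17: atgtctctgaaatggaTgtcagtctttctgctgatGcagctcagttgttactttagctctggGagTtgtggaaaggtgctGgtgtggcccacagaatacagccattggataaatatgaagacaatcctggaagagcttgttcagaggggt

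A full-length read from these stretches could be told apart, but parts of the transcripts are the same. Of all 150-base windows along the transcript, 1.38% of those in UGT2B11, 4.74% in UGT2B15, 4.03% in UGT2B17 and 0% in UGT2B28 also occurred in another UGT2B gene. With 50-base windows the shares were 40.5%, 26.7%, 23.1% and 35.2%. UGT2B11 and UGT2B28 shared no 150-base window with UGT2B15. The counting of reads that matched several genes (not given in the sources used here) bears on this, and the counts of single UGT2B genes are uncertain.

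UGT2B11 and UGT2B28 transcripts were found in every Control library and almost none remained in ENZ, while UGT2B15 was counted in all 6 libraries and was not called. UGT2B11, a member whose own substrates are poorly known, was counted 21, 24 and 33 times in Control replicates 1 to 3 and 0, 1 and 0 times in ENZ. Every Control library was far above every ENZ library. Summed over libraries and set against the library totals, 78 counts in Control against 1 in ENZ gave an 81.9-fold lower level in ENZ, with an exact 95% binomial interval of 14.3 to 3276 for counting error only.

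UGT2B28, which can conjugate androgens, was counted 18, 11 and 15 times in Control and 0, 1 and 0 times in ENZ. Its groups did not overlap either. The totals of 44 and 1 gave a 46.2-fold lower level in ENZ (exact 95% binomial interval 7.87 to 1866). In edgeR's test the log2 fold changes were -5.87 ± 0.67 (SE, adjusted p = 4.8e-07) for UGT2B11 and -5.04 ± 0.77 (SE, adjusted p = 1.83e-05) for UGT2B28, sizes that depend on the small count edgeR adds to each library. Without ENZ replicate 2, which held the only count of both genes in ENZ, the fitted values were -7.74 and -6.92. Against a floor of 3 counts over the remaining ENZ libraries, the Control level was then 18.8-fold higher for UGT2B11 and 10.6-fold higher for UGT2B28. These ratios leave out counting error in Control. With all libraries, the lower limits of the exact 95% intervals were 14.3-fold for UGT2B11 and 7.87-fold for UGT2B28. A gene that passes the filter through 1 group alone, as both did, has to differ.

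UGT2B15, a main enzyme of dihydrotestosterone glucuronidation, was counted 18, 25 and 24 times in Control and 31, 24 and 26 times in ENZ. The groups overlapped. Its level was 0.819 ± 0.157 CPM in Control and 0.938 ± 0.0821 CPM in ENZ (SD, n = 3 each), a log2 fold change of 0.23 with a 95% interval of -0.32 to 0.79 and an edgeR adjusted p of 0.519. At this depth a rise or fall within that interval could not be seen. UGT2B17, its closest relative and another inactivator of dihydrotestosterone, had 0 counts in all Control libraries and 2, 0 and 0 in ENZ. UGT2B7, which acts on many drugs and steroids, had 1 count, in Control replicate 2, and UGT2B10, known for amine substrates such as nicotine, had 1 count, in ENZ replicate 1. These last 3 genes were removed by the filter; a count of 0 in 1 library allows a level of up to 0.0999 to 0.112 CPM.

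**Figure D1:**
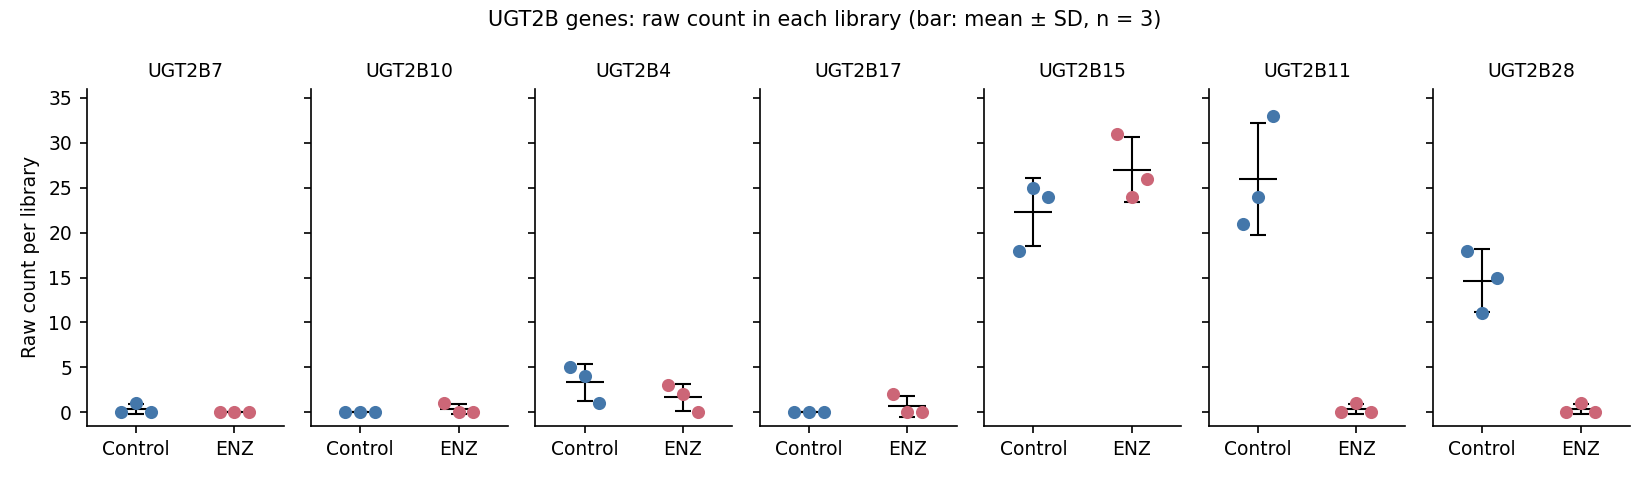
Raw counts of 7 UGT2B genes in each of 3 Control (blue) and 3 ENZ (red) libraries, with bars for the mean ± SD. UGT2B11 and UGT2B28 lie between 11 and 33 in Control and at 0 or 1 in ENZ, the UGT2B15 groups overlap, and UGT2B7, UGT2B10, UGT2B17 and UGT2B4 stay at 5 or under.

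Because reads could be moved between near-identical genes, the 10 UGT2B rows were also summed. The sum was 63, 68 and 73 counts in Control and 37, 28 and 26 in ENZ. All ENZ libraries were below all Control libraries, by 1.199 ± 0.20 (SE) on the log2 scale, or 2.30-fold (edgeR adjusted p = 5.44e-05), which does not depend on how reads were split among these rows. UGT2B15, the other large part of the sum, had totals of 67 in Control and 81 in ENZ. The fall of the sum and the change in its makeup therefore restate the counts of UGT2B11 and UGT2B28 above and are no separate results. UGT2B15 held 28.6%, 36.8% and 32.9% of the UGT2B counts in Control and 83.8%, 85.7% and 100% in ENZ, a mean of 32.7 ± 4.10% against 89.8 ± 8.86% (SD, n = 3 each). The groups did not overlap, and the exact two-sided permutation test gave p = 0.1, the smallest that 3 against 3 libraries allow. UGT2B11 and UGT2B28 together with UGT2B15 thus made up most of the family's transcripts in Control, and UGT2B15 did so in ENZ.

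The other UGT2B rows had few transcripts. UGT2B4, a bile acid and steroid glucuronosyltransferase at the end of the cluster, was counted 5, 4 and 1 times in Control and 3, 2 and 0 times in ENZ. Its totals of 10 and 5 gave a ratio of ENZ to Control of 0.476 with an exact 95% interval of 0.128 to 1.53. The pseudogenes UGT2B24P and UGT2B25P had 2 counts each in Control and 0 in ENZ, and UGT2B26P had 0 in all 6 libraries. Of 21 table rows within 500 kb of the cluster, 13 had fewer than 10 counts in all and 5 were tested. The neighbour YTHDC1, a reader of methylated RNA whose lowest coordinate lies about 227 kb before that of the cluster, had totals of 8255 and 8097 (log2 fold change -0.064, edgeR adjusted p = 0.242). The long noncoding RNA UBA6-DT, also tested, had totals of 998 and 865 (log2 fold change -0.24, edgeR adjusted p = 0.0582). TMPRSS11E, nearer to the cluster and below the filter, had 16 counts in Control and 5 in ENZ.

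**Figure D2:**
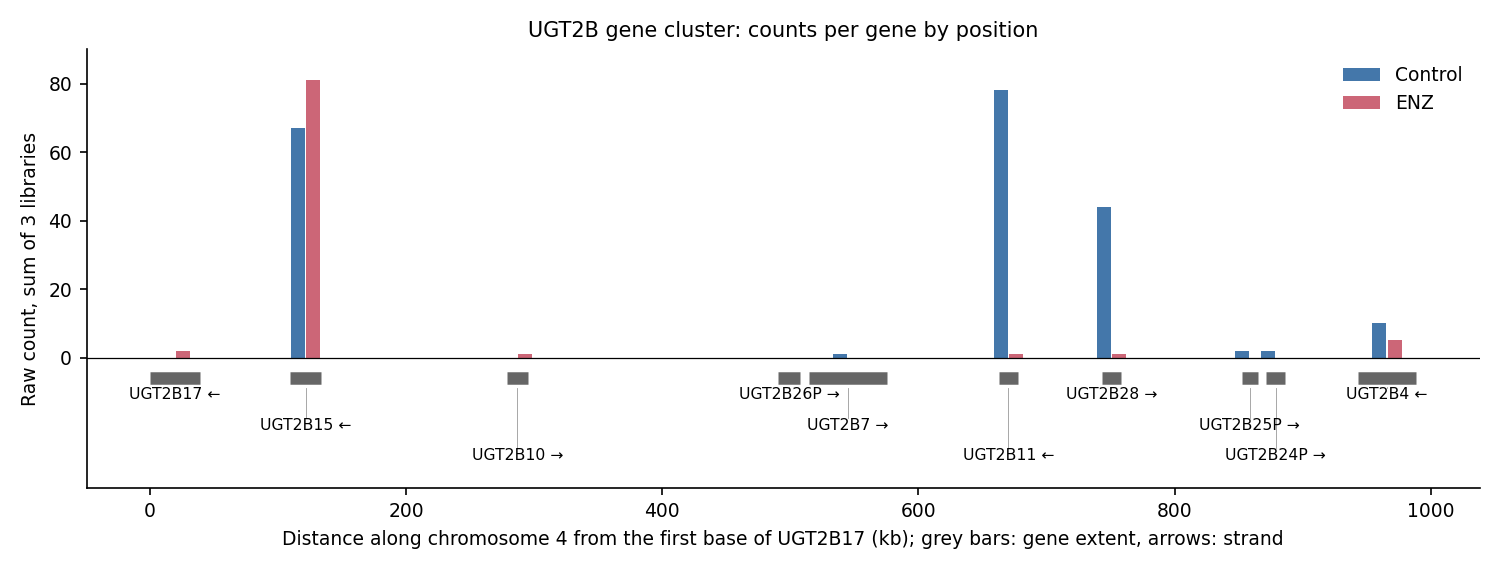
Counts summed over 3 Control (blue) and 3 ENZ (red) libraries for each UGT2B row, placed by distance along chromosome 4 from the first base of UGT2B17 (kb), with gene extents as grey bars and arrows for the strand. Control counts stand at UGT2B15 (67), UGT2B11 (78) and UGT2B28 (44), and ENZ counts at UGT2B15 (81).

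UGT2B11 and UGT2B28 lie on opposite strands, UGT2B11 from 69199951 to 69214748 on the minus strand (ENSG00000213759) and UGT2B28 from 69280475 to 69295050 on the plus strand (ENSG00000135226). A processed pseudogene (ENSG00000249763, 69242628 to 69250815) lies between their 5′ ends, which are at 69214748 and 69280475. UGT2B15 (ENSG00000196620) covers 68646597 to 68670652 on the minus strand. An annotated antisense long noncoding RNA overlaps 18.5% of the exon bases of UGT2B11, and a library that keeps no strand cannot separate their reads. The cells that carry the most UGT2B transcripts in the body are hepatocytes. Of 9 hepatocyte markers in the table, 8 were under 1 CPM in both groups. The exception was ALB (albumin), at a mean of 60.3 CPM in Control and 71.8 CPM in ENZ, and the summed level of the list was 58.0 to 64.1 CPM in Control and 69.9 to 74.0 CPM in ENZ, most of it ALB. Its part in the UGT2B result was not tested. All 8 leukocyte markers were under 1 CPM, CD3E at 0. Of 8 fibroblast markers, 5 were under 1 CPM, COL1A2 and THY1 among them; the list's sum was 77.7 to 86.7 CPM in Control and 40.2 to 43.1 CPM in ENZ, most of it LUM (lumican, 67.4 CPM in Control and 29.2 CPM in ENZ). Its part in the UGT2B result was not tested. In such bulk RNA, fewer cells with a transcript and less of it per cell cannot be told apart.

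Promoter sequences were looked up for the members in RefSeq (GRCh38.p14), and 7 of 10 had an entry; UGT2B17, UGT2B28 and HSD17B6 were not matched. The 250 bases before the start of UGT2B11, which was lower in ENZ, and of UGT2B15, which was not called, are shown side by side. They are chr4:69214749-69214998 and chr4:68670653-68670902, both read on the minus strand. Capitals mark matches on either strand to the letters TGTTTAC or TATTTAC or TATTGAC, forms of the motif bound by FOXA factors.
UGT2B11 promoter: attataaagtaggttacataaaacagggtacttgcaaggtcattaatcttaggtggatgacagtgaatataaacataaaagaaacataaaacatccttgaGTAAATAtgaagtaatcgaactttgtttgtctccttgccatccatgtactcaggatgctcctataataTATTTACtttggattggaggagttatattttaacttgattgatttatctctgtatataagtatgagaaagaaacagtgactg
UGT2B15 promoter: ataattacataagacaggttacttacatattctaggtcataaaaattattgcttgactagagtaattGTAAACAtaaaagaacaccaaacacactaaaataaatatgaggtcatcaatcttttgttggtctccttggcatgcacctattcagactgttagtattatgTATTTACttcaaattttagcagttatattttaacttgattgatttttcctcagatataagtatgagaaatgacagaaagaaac

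Both windows held 2 FOXA matches, and 1 of them lay at nearly the same place, 82 to 76 bases before the start in UGT2B11 and 83 to 77 in UGT2B15. The UGT2B10 promoter also had 2 and that of UGT2B7 had 0. Of 35116 promoter windows of the same length, 6.34% had a match, and of the 1992 with a GC content of at most 35% the share was 20.3%; the windows of UGT2B11 and UGT2B15 had 31.2% and 28.4% GC. The letters AGAACA, a half-site of steroid receptors, occurred in the UGT2B15 window alone among these 4, at 172 to 167 bases before the start, and in 12.4% of all windows (23.5% of those with low GC). The letters TTTATG, a CDX motif, occurred in all 4 and in 9.64% of all windows (32.9%). In UGT2B15 the CDX match at 178 to 173 overlapped the FOXA match at 183 to 177 by 2 bases. The UGT2B11 window was 93.1% identical to that of UGT2B10 and 78.6% identical to that of UGT2B15. A match describes letters, not binding.

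Among the steroid-converting members, SRD5A3 fell, and the other 3 were not called. The share called, 1 of 4, was below the 39.8% of all genes and is no result about these genes as a group. SRD5A1 (ENSG00000145545, chromosome 5, 6633427 to 6674386) encodes steroid 5-alpha-reductase type 1, which reduces testosterone to dihydrotestosterone. It was at 38.9, 40.7 and 40.1 CPM in Control and 43.5, 42.2 and 42.1 CPM in ENZ. All ENZ libraries were above all Control libraries, by a small step: the log2 fold change was 0.13 ± 0.052 (SE, 95% interval 0.021 to 0.24), and the edgeR adjusted p of 0.0535 missed the threshold. Groups that did not overlap were common, at 49.2% of the genes tested.

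SRD5A3 (ENSG00000128039, chromosome 4, 55346213 to 55373100) is named as a 5-alpha-reductase but is best known for the step from polyprenol to dolichol, the lipid that carries sugars for protein N-glycosylation. It was at 22.3, 24.95 and 24.4 CPM in Control and 20.4, 19.9 and 18.4 CPM in ENZ. All ENZ libraries were lower than all Control libraries, a 1.19-fold difference (log2 fold change -0.25 ± 0.070 SE, 95% interval -0.40 to -0.11, edgeR adjusted p = 0.0059). Exons of a same-strand gene overlap 23.2% of its exon bases and those of SRD5A3-AS1, on the opposite strand, 14.0%. Those genes had totals of 146 and 241 counts over all libraries, and SRD5A3 had 1960 in Control and 1686 in ENZ. How reads in the shared exons were counted was not tested.

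The balance between the reductases differed between the groups. The log2 ratio of SRD5A1 to SRD5A3 counts, which does not depend on the scaling of libraries, was 0.80, 0.71 and 0.71 in Control and 1.09, 1.08 and 1.196 in ENZ. The ENZ ratios were all higher, by 0.38 on the log2 scale or 1.30-fold. The exact two-sided permutation test gave p = 0.1, the smallest possible, and 0.2 after adjustment over the 2 of 4 planned pairs with at least 10 counts in every library.

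HSD17B6 (ENSG00000025423, chromosome 12, 56752161 to 56787790) encodes an oxidative enzyme that regenerates dihydrotestosterone from androstanediol. It was at 0.957, 1.40 and 1.35 CPM in Control and 1.23, 1.76 and 1.46 CPM in ENZ. The groups overlapped (log2 fold change 0.30, 95% interval -0.18 to 0.77, edgeR adjusted p = 0.324). Exons of PRIM1, a primase gene on the opposite strand with 42.8 ± 0.778 CPM in Control and 41.0 ± 1.72 CPM in ENZ (SD, n = 3 each), overlap 5.81% of its exon bases, so part of its low count is uncertain.

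HSD17B11 (ENSG00000198189, chromosome 4, 87336515 to 87391188) encodes a lipid-droplet dehydrogenase that can oxidise androstanediol to androsterone. It was at 72.8, 71.3 and 81.0 CPM in Control and 74.7, 72.6 and 72.7 CPM in ENZ. The groups overlapped, and the interval of its log2 fold change was narrow, -0.10 to 0.11 around 0.0022 (edgeR adjusted p = 0.978). The log2 ratio of HSD17B6 to HSD17B11 was higher in ENZ by 0.30 with overlapping groups (exact permutation p = 0.3, adjusted 0.3).

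GC content bears on these values. The median log2 fold change of all genes was -0.18 below 40% GC and 0.14 above 60%, and the transcripts of HSD17B11 and SRD5A1 had 37.8% and 42.7% GC. With offsets per library for GC content and length, the log2 fold change was 0.25 for HSD17B11 (edgeR adjusted p = 1.56e-05) and 0.22 for SRD5A1 (adjusted p = 3.33e-04), both then called higher, and -0.17 for SRD5A3 (adjusted p = 0.0356). Over all genes the offsets moved the median log2 fold change from -0.0059 to 0.035. The share of calls that were higher went from 51.6% to 61.1%, so a shift upward was not particular to these members.

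**Figure D3:**
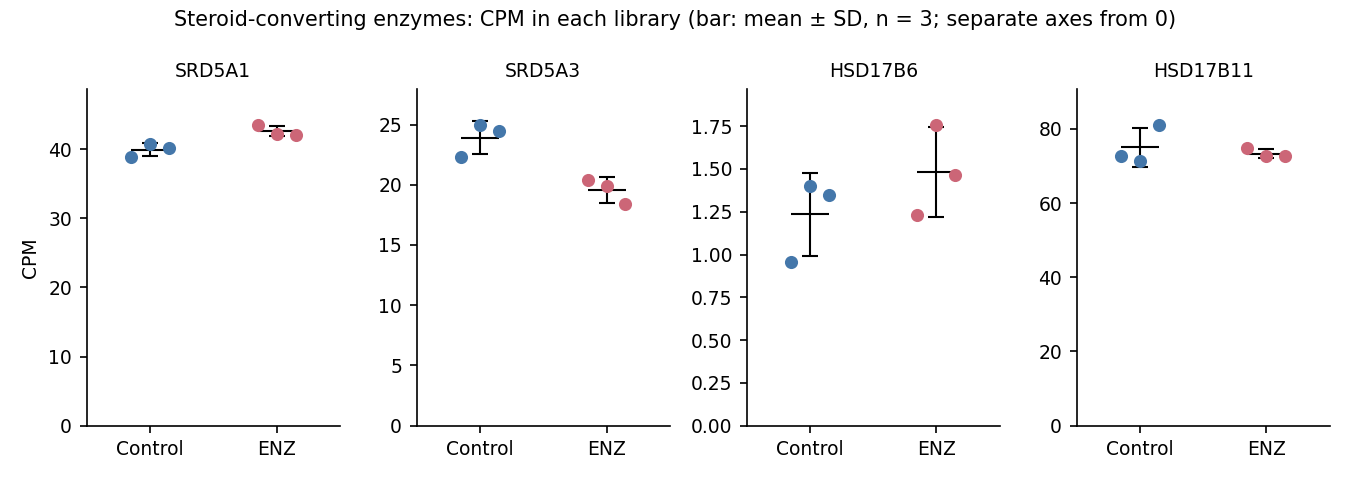
CPM of the 4 steroid-converting members in each of 3 Control (blue) and 3 ENZ (red) libraries, with bars for the mean ± SD and a separate axis from 0 for each gene. ENZ points are above Control for SRD5A1 and below it for SRD5A3, and the groups overlap for HSD17B6 and HSD17B11.

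**Figure D4:**
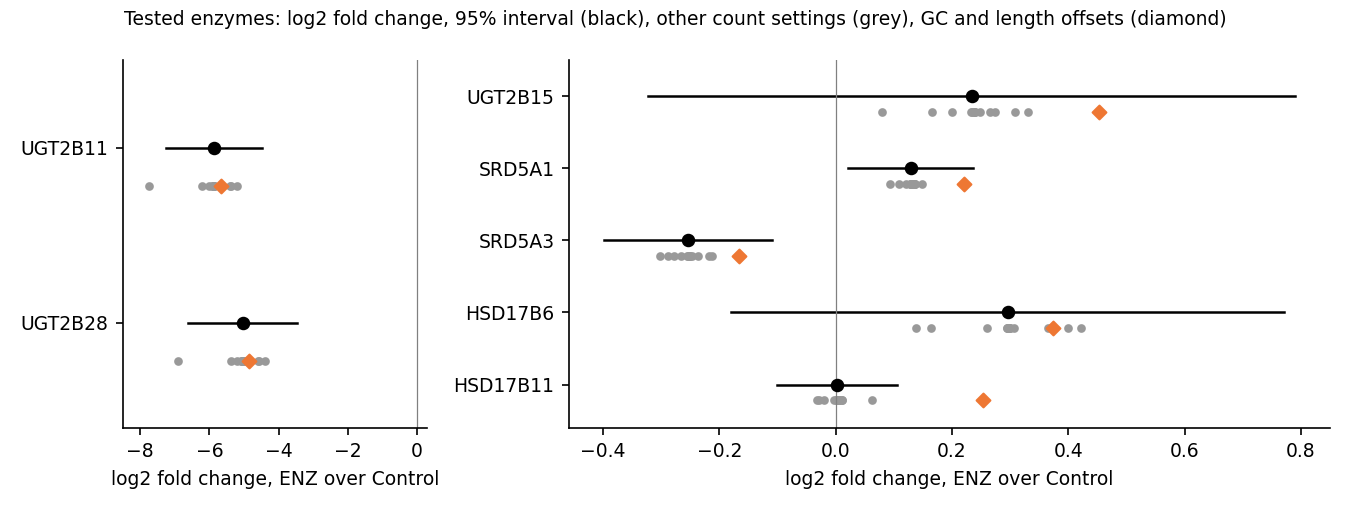
Log2 fold change (ENZ over Control) of the 7 members tested, as edgeR's estimate with its 95% interval (black), under the other count settings (grey) and with GC and length offsets (orange diamond). The estimates of UGT2B11 and UGT2B28 stay below -4 in these count settings, while the 95% interval of UGT2B28 reaches up to -3.45. Those of UGT2B15 and HSD17B6 stay above 0 with intervals that span it. HSD17B11 lies near 0 except with the offsets, at 0.25.

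Levels of different genes were compared on the deposited FPKM values, which are scaled to gene length and library total. In Control the order of mean FPKM was HSD17B11 (32.2 ± 2.25, SD, n = 3), SRD5A1 (5.23 ± 0.126), SRD5A3 (3.10 ± 0.180), HSD17B6 (0.544 ± 0.106), UGT2B11 (0.405 ± 0.108), UGT2B15 (0.384 ± 0.0736) and UGT2B28 (0.288 ± 0.0641). The first 3 genes did not overlap with each other or with the rest. From HSD17B6 down, each gene's libraries overlapped with those of the next, so their order was not resolved. In ENZ the order was HSD17B11 (31.5 ± 0.511), SRD5A1 (5.58 ± 0.101), SRD5A3 (2.54 ± 0.139), HSD17B6 (0.653 ± 0.116) and UGT2B15 (0.440 ± 0.0385), with no overlap between neighbours. The other 5 members were at 0.0259 FPKM or lower in every ENZ library. The 6 glucuronosyltransferases had the lowest mean FPKM of the members in both groups.

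The genes whose pattern over the 6 libraries was most like that of SRD5A3 were ZDHHC11, TMEM107, BNIP3, IFIH1 and BRIX1, out of 14279 genes with a mean of at least 1 CPM. Likeness was the root mean square difference of log2 CPM after centring each gene on its Control mean, and it was 0.031 to 0.032 for these 5. Their log2 fold changes were -0.28, -0.25, -0.26, -0.28 and -0.24.

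Glucuronidation also needs its cofactor and an exit for the product. Of 11 genes for UDP-glucuronate supply and glucuronide handling, 10 were tested, 3 were higher and 3 lower in ENZ. The share called was 60%, beside 39.8% of all genes tested, a difference that was not tested. The median log2 fold change was -0.028 against -0.0059 for all genes tested. ABCC4, an efflux pump for steroid sulfates and glucuronides, fell most, from 36.8, 35.1 and 37.8 CPM in Control to 20.3, 17.9 and 18.2 CPM in ENZ. Its groups lay far apart (log2 fold change -0.92 ± 0.064 SE, edgeR adjusted p = 1.8e-10). The pumps ABCC1 and ABCC2 rose by 0.33 and 0.29. UGDH, which makes UDP-glucuronate, was abundant and fell by 0.093, from 293 ± 6.46 to 268 ± 1.76 CPM (SD, n = 3 each, edgeR adjusted p = 0.0362). That call was lost in 6 of 17 alternative fits, and UGDH turned higher with GC and length offsets (0.086, edgeR adjusted p = 0.0329). Of the nucleotide-sugar carriers, SLC35D1, which moves UDP-glucuronate into the endoplasmic reticulum, fell by 0.22 and SLC35D2 rose by 0.42. The call of SLC35D1 was lost with GC and length offsets (-0.12, edgeR adjusted p = 0.0782). With GC and length offsets 6 genes of the list were higher and 1 lower. Over all genes, 61.1% of calls were then higher, against 51.6% without the offsets.

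Other UGT enzymes were scarce. Of 16 listed, 5 were in the table and 1, UGT8, a ceramide galactosyltransferase, was tested; it was lower by 0.18 (edgeR adjusted p = 0.0426), a call lost in 9 of 17 alternative fits. UGT1A1 had 0 counts in all libraries.

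The tested aldo-keto reductases of the AKR1C family rose in ENZ. Of 10 other reductases and 3-alpha enzymes in the table, 5 were tested, 3 rose and 0 fell, with a median log2 fold change of 0.62. The share called was 60%, beside 39.8% of all genes tested, and no result about the list is read from 5 genes. AKR1D1, a gene of this list that was below the filter, went the other way, with totals of 32 counts in Control and 3 in ENZ. AKR1C3, which makes testosterone from androstenedione, was counted 183, 205 and 220 times in Control and 381, 334 and 342 times in ENZ. Every ENZ library was above every Control library (log2 fold change 0.76 ± 0.096 SE, edgeR adjusted p = 1.86e-06). AKR1C2, which reduces dihydrotestosterone to androstanediol, was counted 42, 38 and 48 times in Control and 84, 80 and 94 times in ENZ (log2 fold change 0.97 ± 0.17 SE, adjusted p = 1.14e-04). AKR1C1, which inactivates progesterone, rose by 0.62 (adjusted p = 0.0271), a call lost in 6 of 15 alternative fits. These AKR1C genes are related copies. How much sequence each shares with the others was not measured here, and their separate counts are uncertain. HSD17B10, a mitochondrial dehydrogenase, was at 150 ± 6.39 CPM in Control and 159 ± 11.4 CPM in ENZ (adjusted p = 0.0786), and SRD5A2, the type 2 5-alpha-reductase, had 1 count in 6 libraries.

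Among 10 other 17-beta-hydroxysteroid dehydrogenases, 8 were tested, 0 rose and 1 fell. The share called was 12.5%, beside 39.8% of all genes tested, and no result about the list is read from 8 genes. The one that fell was DHRS11, by 0.20 (edgeR adjusted p = 0.0098), a call lost in 2 of 17 alternative fits. HSD17B4, a peroxisomal enzyme that oxidises estradiol and long-chain fatty acids, was at 214 ± 6.61 CPM in Control and 199 ± 2.44 CPM in ENZ (adjusted p = 0.127). HSD17B3, the testicular enzyme of testosterone synthesis, had at most 2 counts in a library.

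Androgen synthesis from cholesterol was hardly represented. Of the 16 listed genes that were present, 9 were under 1 CPM in both groups, CYP17A1 and HSD3B2 at 0 in all libraries; HSD3B1 was not analysed here. Of the 7 tested, H6PD, which supplies NADPH in the endoplasmic reticulum, rose by 0.23, and CYB5A, a partner of CYP17A1, fell by 0.16 (edgeR adjusted p = 0.0266), a call lost in 6 of 17 alternative fits. The share called was 28.6%, beside 39.8% of all genes tested, and no result about the list is read from 7 genes.

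Sulfation is the other route by which steroids are conjugated. Of 8 genes tested, 2 rose and 2 fell, 50% called beside 39.8% of all genes. With library totals alone 1 was higher, and with GC and length offsets 4 were. Of the calls over all genes, 43.0% and 61.1% were higher in these fits, against 51.6% in the main fit. PAPSS2, which makes the sulfate donor, fell from 5.01 ± 0.118 to 3.34 ± 0.452 CPM (SD, n = 3 each, log2 fold change -0.55, edgeR adjusted p = 0.00209), and the sulfotransferase SULT1A1 fell by 0.25, a call lost in 5 of 17 alternative fits. The sulfatase-activating enzyme SUMF1 and the sulfate-donor carrier SLC35B2 rose by 0.20 each, and the SUMF1 call was lost in 8 of 17.

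In the dolichol pathway, in which SRD5A3 acts, 5 of 17 genes rose and 4 fell, with a median log2 fold change of 0.053. The share called was 52.9%, beside 39.8% of all genes tested, a difference that was not tested. DHRSX, an oxidoreductase that acts in the same conversion as SRD5A3, was counted 211, 222 and 198 times in Control and 386, 325 and 350 times in ENZ. It rose by 0.71 ± 0.089 (SE, edgeR adjusted p = 1.42e-06) where SRD5A3 fell. The subunits of the enzyme that builds the polyprenol chain also differed in direction, DHDDS with a rise of 0.34 and NUS1 with a fall of 0.28. With GC and length offsets NUS1 was at -0.088 (edgeR adjusted p = 0.0446). DOLPP1, a dolichyl phosphatase, rose by 0.23, and the mannosyltransferase ALG11 fell by 0.30.

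Of 18 regulators of UGT2B and steroid enzyme genes in the table, 13 were tested, 7 rose and 1 fell. The share called was 61.5%, beside 39.8% of all genes tested, of which 20.5% were higher. The median log2 fold change was 0.16 against -0.0059 for all genes tested. The difference between these shares was not tested. FOXA1, a pioneer factor that opens chromatin, was at 390, 397 and 383 CPM in Control and 425, 426 and 421 CPM in ENZ. All ENZ libraries were higher (log2 fold change 0.16 ± 0.033 SE, edgeR adjusted p = 6.96e-04). GATA2 rose by 0.66, PPARA by 0.40, HOXB13 by 0.34 and the glucocorticoid receptor NR3C1 by 0.29, while POU2F1 fell by 0.35. With GC and length offsets NR3C1 was at 0.46, POU2F1 at -0.22, ALG11 at -0.19 and H6PD at 0.14, each still called by edgeR. With log2(FPKM + 1) and no filter on low values, the limma calls of NR3C1, POU2F1, ALG11, ABCC2 and PAPSS2 were lost (adjusted p = 0.0545 to 0.12). KDM1A, which encodes LSD1, was not called (log2 fold change -0.024, adjusted p = 0.681).

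**Figure D5:**
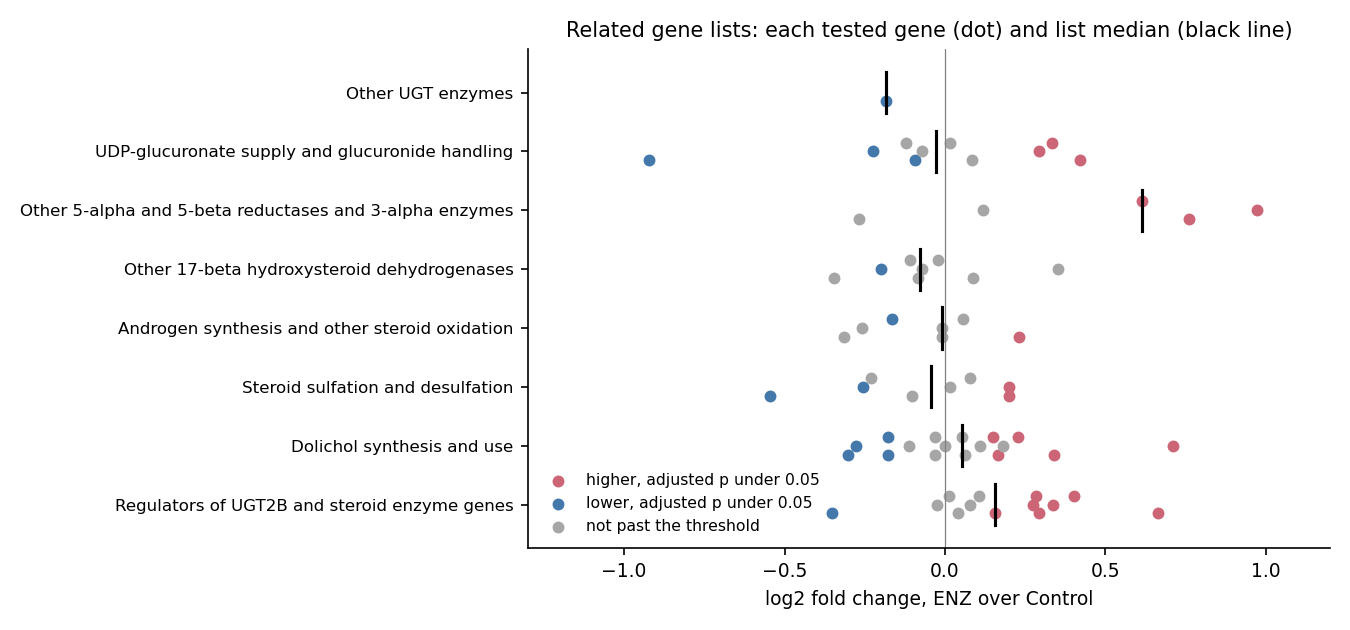
Log2 fold change (ENZ over Control) of each tested gene in 8 lists of related genes, red where higher and blue where lower at an adjusted p under 0.05, grey otherwise, with the list median as a black line. The medians lie between -0.18 and 0.16 except for the reductases and 3-alpha enzymes, at 0.62.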

How the data were processed

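Per the labels' protocols, polyadenylated RNA was sequenced from libraries of the NEBNext Ultra type, without a mark of strand. HISAT2 2.0.5, HTSeq 0.6.1, DESeq2 1.20.0 and GRCh38 are named in the submitters' processing notes, without annotation release, strand setting or filters (not given in the sources used here). The deposited values are the authors' raw counts and their FPKM values, scaled to gene length and library total.

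The counts were fitted with edgeR 4.0.16 (R 4.3.3): TMM factors, the default filter on low counts (minimum count 10), robust quasi-likelihood F test, Benjamini-Hochberg adjustment over 18581 genes. The SE is the absolute log2 fold change over the square root of F. CPM used library totals, 26691289 to 30025543 counts, and 3 counts were taken as the limit that a count of 0 allows. Intervals of count ratios are exact binomial and cover counting error only. Pairs of libraries within a group differed by more than sampling noise (chi-square per degree of freedom 1.99 to 6.77), so none was taken as a repeat deposit of another. The series design calls the samples of a group biological replicates.

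Members and gene lists were chosen with earlier results of these data known. All 10 members were named, and in each other list the called genes with a mean of at least 1 CPM, at most 5 by absolute log2 fold change, plus FOXA1, UGDH, SRD5A2, AKR1C3, HSD3B1, HSD17B4 and HSD17B10; other genes named were chosen after their values were seen. Some genes of the lists are not reported here by name. Positions and transcripts came from GENCODE release 44. Alternatives were DESeq2 1.42.0, limma-voom (limma 3.58.1), other scalings and filters, a replicate block, GC and length offsets (natural splines, 4 degrees of freedom), log2(FPKM + 1) and log2(FPKM + 0.1) in limma, and each library left out.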

Additional observations from a re-analysis of the deposited data

How the results depend on the processing

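Of 229 alternative values for 29 results, 204 kept their direction and their side of the threshold, or their count within 1.5 times. UGT2B11 and UGT2B28 were called lower in all 15 alternatives that tested them. Their values were -7.74 to -5.20 and -6.92 to -4.40 on the log2 scale in count-based fits. Both genes entered the filtered fits through the Control libraries alone and had to differ there, so the repeated calls add no support. The UGT2B sum, which holds their counts and restates their fall, was called lower in all 15, at -1.32 to -0.99. SRD5A3 was called in 16 of 17 fits and not on unfiltered log2(FPKM + 1) values (-0.21, adjusted p = 0.0603 in limma), which called 4110 genes in all against 7393; the cause was not tested. With FPKM filtered at a mean of 1, 3 members were left to test and 1 was called under either pseudocount. HSD17B11, near 0, took the opposite sign with library totals alone (-0.033), in the 3 FPKM fits (-0.030, -0.031 and -0.030) and with single libraries left out (-0.029 to 0.063). Leaving out libraries gave 5844 to 8258 calls over all genes. GC and length offsets called 4894 genes higher and 3116 lower over all genes, 61.1% of calls higher against 51.6% without them. They called 5 members instead of 3, SRD5A1 at 0.22 and HSD17B11 at 0.25 among them. UDP-glucuronate genes then had 6 higher and 1 lower, sulfation genes 4 higher, and other UGT enzymes and androgen synthesis 0 lower. DESeq2 gave 0 lower in those last lists and 1 lower in sulfation. Library totals, with 43.0% of all calls higher, gave 2 lower among 17-beta dehydrogenases, 1 higher in sulfation and 3 higher in the dolichol list. The causes of these shifts were not tested. Replicate numbers did not pair the libraries (correlations of same-numbered deviations 0.018, -0.012 and -0.046), and a replicate block gave 7466 calls, 3 of them members. With UGT2B counts of 33 or fewer per library, only large differences could be seen.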

Other observations

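AKR1D1, the 5-beta-reductase that clears steroid hormones and makes bile acids, was below the filter and was picked out after its values were seen. It was counted 9, 12 and 11 times in Control and 0, 3 and 0 times in ENZ, with no overlap between the groups. Like UGT2B11 and UGT2B28, it had its only ENZ counts in ENZ replicate 2. TMPRSS11E, a serine protease gene whose lowest coordinate lies 89.7 kb before that of the UGT2B cluster, also below the filter, had totals of 16 counts in Control and 5 in ENZ.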
